A study of Mus musculus with 6 samples.

Results

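Of the 22188 KLF3, ΔDL and DBD peaks in murine embryonic fibroblasts (MEFs), 4602 (20.7%) lie in an intron of a RefSeq transcript other than its first. These later-intron peaks were chosen by the authors' annotation alone, as rows annotated to an intron whose number is 2 or higher. They were compared with 2670 peaks in first introns and 9686 intergenic peaks. All cells were C57BL/6 Klf3-/- MEFs transduced with a retrovirus, and each construct was studied in a stable clone picked under puromycin, so a difference between constructs and a difference between clones cannot be told apart. The KLF3 cells carry Klf3-V5. The ΔDL cells carry ΔDL-V5, in which the motif that KLF3 uses to contact the corepressor CtBP is mutated. The DBD cells carry DBD-V5, the zinc finger DNA-binding domain with a putative nuclear localization signal and without the N-terminal domain. Chromatin was precipitated through the V5 tag and sequenced in 2 biological replicates per construct, each with its own input.

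KLF3 is a Krüppel-like zinc finger repressor. Its fingers recognize CACCC boxes and related GC-rich sequences, and its N-terminal domain recruits CtBP. Introns hold many of the enhancers of a gene, and the enhancers of fibroblasts are often occupied by AP-1, TEAD and RUNX factors. An intron other than the first usually lies far from the start of the transcript, so these peaks sample binding away from promoters.

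The height of a peak is the authors' log2 count of tags in 400 bp, from both replicates combined and scaled to 100 M tags, and thus comes without an error between replicates. In these units 1 sequenced tag counts as 4.29 in KLF3, 8.45 in ΔDL and 6.23 in DBD. A peak is listed for a construct when both replicates called it. The replicate lists rest on 1.77 M to 18.1 M tags, as inferred from the steps of their scores. In every replicate these are far fewer than the mapped reads that the paper reports for the immunoprecipitate. Depth here means these tags and not the reads sequenced, and the reason for the gap was not tested. ΔDL replicate 1 is the shallowest, with a median of 6 tags in its later-intron peaks, whereas KLF3 replicate 2 had a median of 18. The range in parentheses after a share is its 95% Wilson interval. Such ranges cover counting error only, since peaks are not replicates.

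The later-intron peaks listed for KLF3 but not DBD differed in sequence from those listed for DBD, and 8 peaks are shown to illustrate this. The central 100 bases are given on the plus strand of mm9 in lower case, with KLF boxes (on either strand the word ACACCC, the word with CpG ACGCCC, the word CCACCC, or the word with CpG CCGCCC) and AP-1 sites (TGACTCA, which on the other strand reads TGAGTCA) in capitals. Foxk1, Mtmr4, Fez2, Lpp and Fbn1 hold peaks listed for KLF3 and not for DBD, and those of Grin1, Rapgef6 and Lrp1b are listed for all 3 constructs.
Foxk1 (chr5:142916462-142916561): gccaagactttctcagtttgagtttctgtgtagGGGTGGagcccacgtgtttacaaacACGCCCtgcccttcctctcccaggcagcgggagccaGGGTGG
Mtmr4 (chr11:87408972-87409071): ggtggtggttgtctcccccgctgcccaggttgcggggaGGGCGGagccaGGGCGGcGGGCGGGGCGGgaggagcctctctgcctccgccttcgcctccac
Fez2 (chr17:78799541-78799640): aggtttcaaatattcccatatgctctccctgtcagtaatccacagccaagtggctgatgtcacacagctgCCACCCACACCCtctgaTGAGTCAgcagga
Lpp (chr16:24498533-24498632): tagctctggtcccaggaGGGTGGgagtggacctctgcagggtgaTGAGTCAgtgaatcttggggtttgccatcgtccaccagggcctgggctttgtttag
Fbn1 (chr2:125128033-125128132): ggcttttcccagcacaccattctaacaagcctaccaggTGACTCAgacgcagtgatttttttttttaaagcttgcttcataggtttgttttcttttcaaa
Grin1 (chr2:25148515-25148614): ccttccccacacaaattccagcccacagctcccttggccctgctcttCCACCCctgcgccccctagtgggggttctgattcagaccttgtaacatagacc
Rapgef6 (chr11:54436088-54436187): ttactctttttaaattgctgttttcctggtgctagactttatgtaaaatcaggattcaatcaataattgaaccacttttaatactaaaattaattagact
Lrp1b (chr2:41248394-41248493): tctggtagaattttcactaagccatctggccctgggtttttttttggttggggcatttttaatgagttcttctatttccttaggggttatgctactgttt

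The first kind comprised 1822 later-intron peaks listed for KLF3 and not for DBD (39.6%). A KLF box was present in the central 100 bp of 53.6% of them (51.3 to 55.9%), against 15.9% of flanks of the same length from 400 to 500 bp away. An AP-1 site was present in 22.1% (20.2 to 24.0%), against 2.09% of the flanks. RUNX sites (TGTGGTT) were found in 7.41% and TEAD sites (AGGAATG, or the variant of it GGGAATG) in 8.18%, against 2.42% and 4.06% of the flanks. Their median G+C content was 47.1%, and the mean PhastCons score, which runs from 0 to 1 with conservation across vertebrates, was 0.182.

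The second kind comprised 1288 peaks listed for DBD (28.0%). These peaks held fewer KLF boxes in their centre (7.30%, 6.00 to 8.85%) than in their flanks (10.5%), and 2.10% had an AP-1 site against 1.24% of flanks. They were AT-rich, with a median G+C content of 37.9%, and less conserved, with a mean PhastCons score of 0.101. LINE repeats covered the centre of 7.69% of them, against 3.46% of the first kind. The remaining 1492 peaks (32.4%) are listed for ΔDL alone and resembled the DBD peaks, with a median G+C content of 39.2%, a KLF box in 11.5% of centres and 10.8% of flanks, and an AP-1 site in 3.08%. In the whole table of peaks, KLF boxes were present in 40.2% of centres and AP-1 sites in 7.69%, and in all later-intron peaks in 27.0% and 10.3%. The same division was present in the other regions. A KLF box was in 52.9% of intergenic peaks listed for KLF3 and not DBD against 6.22% of those listed for DBD, and in 67.4% against 10.3% of first-intron peaks, so it is not particular to later introns. The plot of motif shares shows the centre above the flanks for every motif in peaks listed for KLF3 and not DBD.

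**Figure D1:**
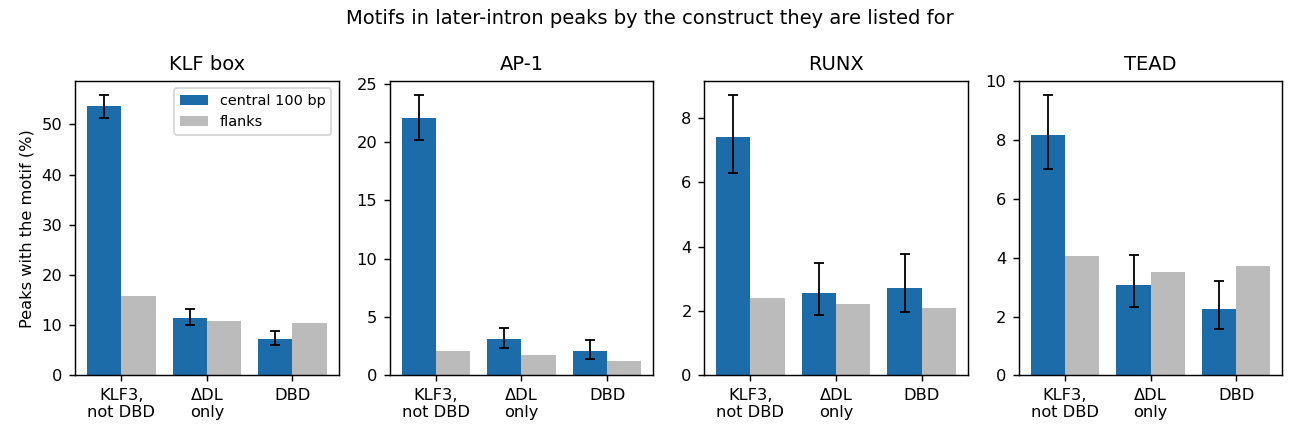
Share of later-intron peaks with each motif in the central 100 bp (blue, with 95% Wilson intervals) and in flanks 400 to 500 bp from the centre (grey), by the construct a peak is listed for; the vertical scale differs between motifs. The KLF box was in 53.6% of centres of peaks listed for KLF3 and not DBD and in 7.30% of those listed for DBD.

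Because KLF boxes are GC-rich, peaks were also compared within 5 classes of G+C content. Between 40 and 45% G+C, 45.6% of 472 peaks listed for KLF3 and not DBD had a KLF box, against 8.25% of 291 peaks listed for DBD and 12.1% of flanks in the class. At 50% G+C and over, the shares were 69.9% of 642 peaks and 31.0% of 42 peaks. Below 35% the interval for the 55 KLF3 peaks ran from 5.10 to 21.8% around a share of 10.9%, and the DBD share was 3.55%, with an interval from 2.13 to 5.88%. The intervals of both kinds overlapped in that class only. Under 45% G+C, boxes were less frequent in the DBD peaks than in the flanks of the same peaks, with 3.70% against 9.85% from 35 to 40%.

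**Figure D2:**
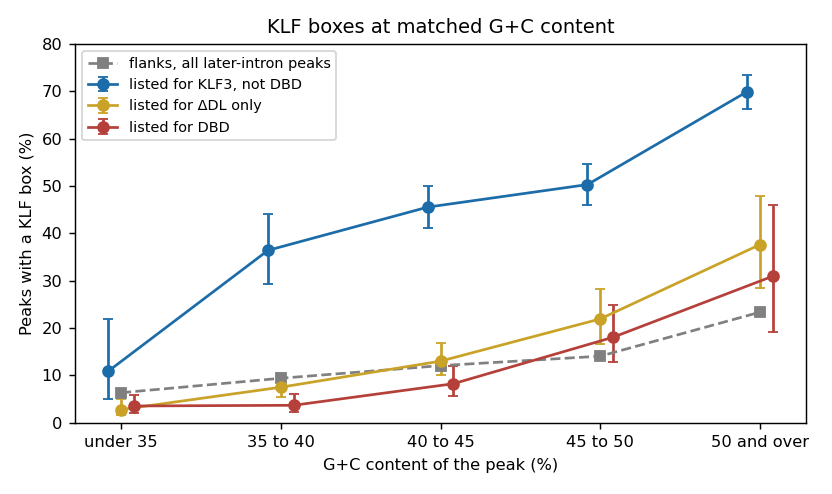
Share of later-intron peaks with a KLF box in the central 100 bp (vertical axis, with 95% Wilson intervals) by class of G+C content of the whole peak (horizontal axis), for 3 listings, with the flanks of all later-intron peaks in grey. From 35% G+C upwards the peaks listed for KLF3 and not DBD lay above both other groups.

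The same division was present in all 4 KLF3 and ΔDL replicate lists. In KLF3 replicate 1, 1668 later-intron peaks overlapped a peak of either DBD replicate and 9.35% of them had a KLF box, against 35.3% of the 3800 that did not. In KLF3 replicate 2 the shares were 13.7% and 52.4%, in ΔDL replicate 1 they were 7.91% and 17.2%, and in ΔDL replicate 2 they were 8.38% and 28.5%. AP-1 sites followed the same order in all 4 lists, from 1.78 to 2.72% in peaks shared with DBD and from 6.38 to 21.2% in the others. The lists of a construct share its clone, and no test was made across the 4.

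Heights fell into 2 groups as well. Relative to KLF3, DBD was at least 2-fold lower at 1761 later-intron peaks (38.3%, against 52.6% of all peaks) and at least 2-fold higher at 188 (4.09%, against 3.27% of all peaks). Another 2653 differed by less than 2-fold. Of the 188 higher in DBD, 180 are not listed for KLF3 and so were included through a mutant that called them. Of the 1761, 1355 were at least 4-fold lower. The median difference of DBD minus KLF3 was 0.08 over all later-intron peaks (log2 scale) and lay within the upper group. By listing it was −2.54 for peaks listed for KLF3 and not DBD, 0.49 for those listed for DBD and 0.36 for those listed for ΔDL alone. Between the groups, 406 peaks were 2- to 4-fold lower in DBD. Listing and height rest on the same tags, so these medians describe the listing. DBD was at 3 tags or fewer at 389 peaks (8.45%), where fold differences from KLF3 are not precise. Setting these heights to 3 tags left the count at 1761 and the median at 0.08. This setting could hardly move either value, since it alters only the lowest DBD heights. It therefore says nothing of how large the falls at those peaks are.

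At 359 later-intron peaks ΔDL was at least 2-fold below KLF3 (7.80%, against 14.9% of all peaks), and it was at least 2-fold higher at 1711 (37.2%, against 28.9% of all peaks), with a median difference of 0.805. Of the 1711, 1300 are not listed for KLF3 and so were included through a mutant that called them. Among the 2457 peaks listed for KLF3, 411 were at least 2-fold higher in ΔDL, and the median difference was −0.05. The values over all later-intron peaks also depend on how the constructs are scaled. When each was shifted to the same median height over the peaks listed for all 3 constructs, which lowered every ΔDL height by 1.06 and every DBD height by 0.42 on the log2 scale, ΔDL was at least 2-fold lower at 1342 peaks (29.2%, against 43.0% of all peaks) and higher at 25 (0.543%, against 0.397% of all peaks). The median difference changed sign, to −0.255. DBD was then at least 2-fold lower at 1816 (39.5%, against 53.7% of all peaks) and higher at 22 (0.478%, against 0.428% of all peaks), with a median of −0.34. In the authors' scaling the ΔDL median difference from KLF3 was −0.35 for peaks listed for KLF3 and not DBD and 1.06 for those listed for DBD.

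**Figure D3:**
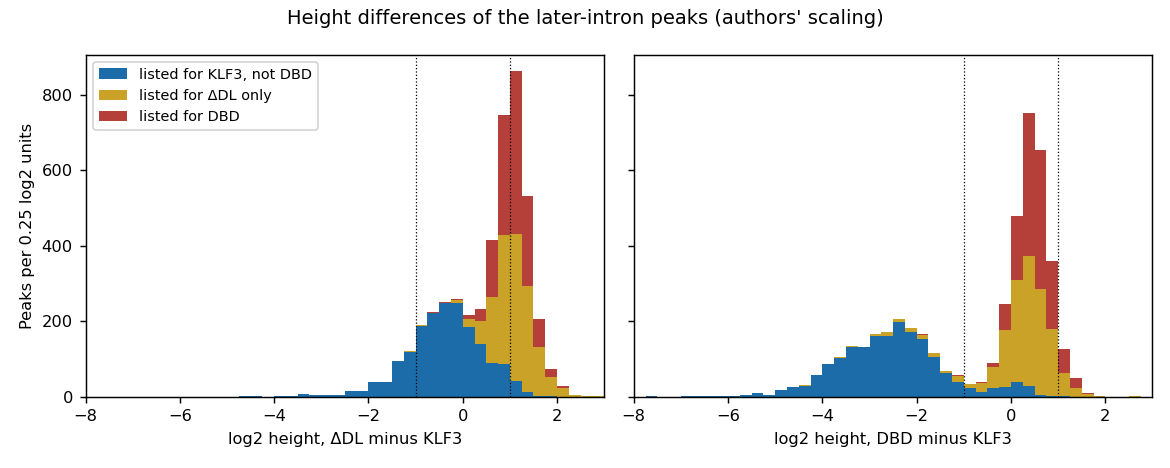
Number of later-intron peaks (vertical axis) by the log2 difference in height between ΔDL and KLF3 (left) and between DBD and KLF3 (right), in the authors' scaling, stacked by listing; dotted lines mark 2-fold. DBD minus KLF3 forms one group around −2.54 and another around 0.49, while in ΔDL the groups lie at −0.35 and 1.06.

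Within the peaks listed for KLF3 and not DBD, where a low DBD height is fixed by the listing, the median of DBD minus KLF3 was −2.54 for 773 peaks with a KLF box alone, −2.79 for 199 with an AP-1 site alone, −2.72 for 203 with both and −2.44 for 647 with neither. The KLF3 height of peaks listed for KLF3 increased with the number of KLF boxes in the whole peak, from a mean of 179 scaled tags ± 3.23 (SEM over 869 peaks) without a box to 244 ± 5.02 with 1 (775 peaks), 292 ± 9.08 with 2 (417 peaks) and 329 ± 10.3 with 3 or more (396 peaks). In replicate 2 the mean called tags rose along the same series from 20.2 to 26.5, 31.5 and 36.0. In replicate 1 they were 11.9, 13.6, 15.9 and 15.4, so the increase stopped at 2 boxes in that replicate. This series includes peaks also listed for DBD, which were 48.2% of those without a box and 4.5% of those with 3 or more. Median G+C content was 40.65% and 54.61% in these classes. The part of this mix in the increase was not tested, and the SEM is over peaks, which are not replicates.

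Many peaks that are not listed for a construct overlapped a peak in 1 of its replicates. Of the later-intron peaks, 53.4% are listed for KLF3 (63.6% of all peaks), 65.3% for ΔDL (55.2% of all peaks) and 28.0% for DBD (22.3% of all peaks). Of the 1455 listed for KLF3 alone, 881 (60.6%) overlapped a peak of ΔDL replicate 2 but 49 (3.37%) one of the shallow ΔDL replicate 1. Of the 1492 listed for ΔDL alone, 517 (34.7%) overlapped a KLF3 replicate 1 peak and 103 (6.90%) a KLF3 replicate 2 peak, and 883 (59.2%) overlapped neither. Of the 527 listed for ΔDL and DBD, 379 (71.9%) were in the KLF3 replicate 1 list and 42 (7.97%) in the replicate 2 list. Of the 1455 peaks listed for KLF3 alone, 20 (1.38%) overlapped a peak of DBD replicate 1 and 24 (1.65%) one of DBD replicate 2. The 2 DBD lists overlapped 39.61% and 33.85% of all later-intron peaks, and the 2 ΔDL lists 67.6% and 85.85%. Listing for KLF3 alone leaves out peaks listed for ΔDL or DBD, so low overlaps with those replicates are in part built in.

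Later-intron peaks made up 20.4% and 16.9% of the peaks in the 2 KLF3 lists, 24.99% and 22.1% in the ΔDL lists and 26.6% and 26.1% in the DBD lists. The mean shares were 18.7% ± 2.50 (SD, n = 2), 23.6% ± 2.03 and 26.3% ± 0.356. The ranges of the 3 constructs did not overlap. ΔDL exceeded KLF3 by 4.90 percentage points, DBD exceeded KLF3 by 7.66 and DBD exceeded ΔDL by 2.75. For each comparison the two-sided exact permutation test gave p = 0.333, the smallest value that 2 against 2 lists allow, and 0.333 after Benjamini-Hochberg adjustment over the 3 comparisons. When promoter peaks were left out of every list, these differences were 1.64, 1.90 and 0.255 percentage points, with exact permutation p of 0.333, 0.333 and 0.667.

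Compared with first introns, the later introns had fewer KLF boxes in all 6 replicate lists, by a mean of 10.2 percentage points (20.4% ± 13.9 against 30.5% ± 19.5, SD over 6 lists). Their median G+C content was lower in all 6 as well, by 3.26 percentage points. Compared with intergenic peaks they had more KLF boxes in 6 of 6 lists, by 2.09 percentage points, more AP-1 sites, by 1.16, more RUNX sites, by 0.481, and a higher G+C content, by 1.15. Each of these 6 differences had p = 0.0312 in a two-sided exact sign-flip permutation test, the smallest value that 6 lists allow, and an adjusted p of 0.0521 over the 10 differences tested. None of the 10 therefore passed 0.05 after adjustment. The 6 lists are also not independent, since those of a construct share its clone and 617 later-intron peaks are in all 6. The test treats the lists as independent pairs, so its p-values are only a rough guide. With the flank share subtracted in each list, the KLF box differences were −5.90 from first introns and 0.821 from intergenic peaks, the latter with adjusted p = 0.25 in the exact permutation test. AP-1 and RUNX shares differed from those of first introns by 1.02 and 0.592 percentage points, and TEAD shares by −0.158 from first introns and −0.153 from intergenic peaks, with adjusted p from 0.179 to 0.625 in the same exact permutation test. Without KLF3 replicate 2, the AP-1 difference from first introns was 0.0915.

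**Figure D4:**
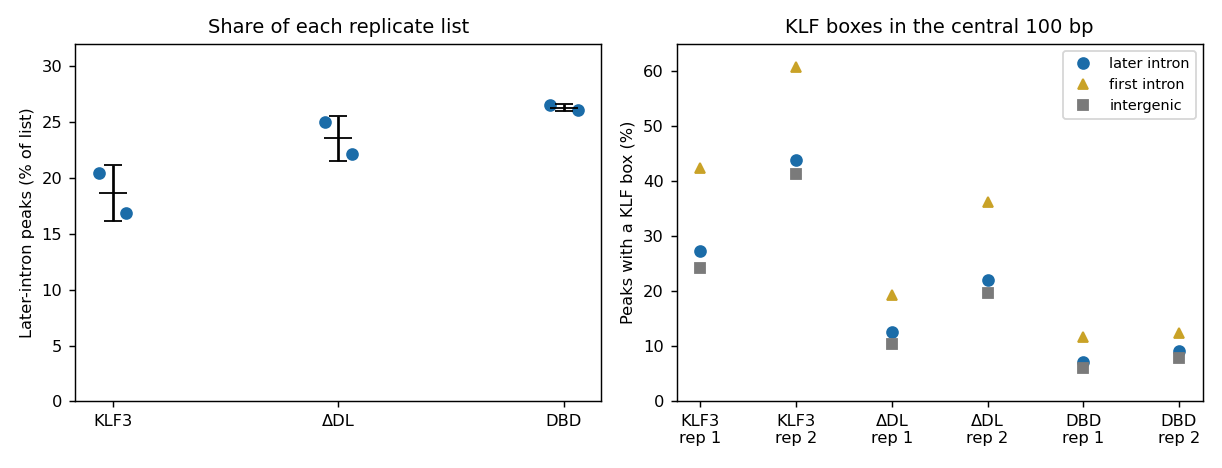
Left, later-intron peaks as a percentage of each replicate list (points), with the mean and SD of the 2 replicates (bars); right, percentage of peaks with a KLF box in the central 100 bp for each of the 6 replicate lists, by region. In every list the first introns lay above the later introns, and the later introns above the intergenic peaks.

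The kinds of peak were mixed in different proportions by position. The median distance to the nearest transcription start site (TSS) was 45.5 kb, against 7.97 kb for first-intron peaks. Of 312 later-intron peaks within 5 kb of a TSS, 74.0% are listed for KLF3, 16.7% for DBD and 54.2% have a KLF box. Of the 1245 over 100 kb away, 43.5% are listed for KLF3, 34.2% for DBD and 16.4% have a KLF box. Intron 2 held 1171 of the peaks (25.4%) and 58.4% of these are listed for KLF3, against 48.8% of the 1436 peaks in intron 8 or later. G+C content moved with distance, from a median of 50.2% within 5 kb to 38.7% beyond 100 kb, and its part in these shares was not tested.

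Of the 5 highest KLF3 peaks of this class, 4 were lower in DBD by 3.70 to 5.68 on the log2 scale, while that of Prph, described with the next group, was lower by 0.45. The peak at Foxk1, which encodes a forkhead transcription factor, had heights of 10.50 in KLF3, 9.24 in ΔDL and 6.80 in DBD, and lies in intron 2 of 8. The KLF3 replicates had 80 and 193 tags at this peak, which neither DBD replicate called. At Bahcc1, 2 peaks in intron 2 had KLF3 heights of 10.40 and 10.22, ΔDL heights of 9.21 and 9.51, and DBD heights of 4.72 and 5.98. The Aktip peak, in intron 2 of 10 and 1400 bp from a TSS, had heights of 10.36, 9.76 and 5.03. In these 4 peaks KLF3 was the highest construct and DBD the lowest. The same order was found at both peaks of Fez2, with heights of 9.66, 9.30 and 6.49 in intron 4 and 9.02, 8.32 and 5.04 in intron 5, where 2 adjoining KLF boxes stand near an AP-1 site in the sequence given above. In intron 4 the scaled tag ratio of KLF3 to ΔDL was 1.29, with an exact counting interval from 0.981 to 1.71, so their order there is within counting error. In intron 5 the ratio was 1.66 (1.14 to 2.47). The paper describes ΔDL as keeping its peaks in the body of Fez2.

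In contrast, in the authors' scaling the peaks at Grin1 and Prph were of similar height in all 3 constructs. The Grin1 peak lies in the last of 19 introns of the gene for an NMDA receptor subunit. Its heights were 10.05 in KLF3, 10.45 in ΔDL and 10.17 in DBD, and its replicates had 99 and 172 tags in KLF3, 33 and 118 in ΔDL, and 95 and 102 in DBD. The peak in intron 3 of Prph, which encodes the neuronal intermediate filament protein peripherin, had heights of 10.29, 10.56 and 9.84. Map3k6, which encodes a MAP kinase kinase kinase, had a peak in intron 22 with heights of 9.63, 9.78 and 9.19. Hsd17b12, a hydroxysteroid dehydrogenase gene, had the fourth peak of this kind, with heights of 8.03, 8.60 and 8.08. The Rapgef6 peak, AT-rich and without a KLF box, had heights of 9.01, 10.07 and 9.44 and was called in all 6 replicates. Its tags, 64 and 83 in KLF3, 68 and 99 in ΔDL and 65 and 71 in DBD, are not scaled for depth. The KLF3 lists rest on 5.46 M and 18.1 M tags and the ΔDL lists on 1.77 M and 10.2 M. In KLF3 and ΔDL the tags at Rapgef6 thus did not rise in proportion to depth. Rapgef6, a guanine nucleotide exchange factor gene, and the other peaks of this paragraph belong to the set on which the common median is fixed. Later-intron peaks of that set had medians of −0.03 in ΔDL and 0.00 in DBD after the shift, so a value near these is largely built in. With the common median, Rapgef6 was at 0.00 in ΔDL and 0.01 in DBD relative to KLF3. Grin1, Prph, Map3k6 and Hsd17b12 were lower than KLF3 in ΔDL by 0.49 to 0.91 and in DBD by 0.30 to 0.87. Which of these peaks are most alike therefore depends on the scaling.

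With the height limit of 8 in KLF3, the largest losses in ΔDL were at Pik3c2g, Mtmr4, Nsmce2 and Aig1, all listed for KLF3 alone and called in no ΔDL replicate. Pik3c2g, which encodes a phosphoinositide 3-kinase, had heights of 8.11 in KLF3 and 4.26 in ΔDL. This is 64 KLF3 tags against 2, a ratio of 16.3 after scaling with a 95% exact counting interval from 4.32 to 137. Mtmr4, which encodes a myotubularin-related phosphatase and whose centre is given above, had heights of 8.55 and 4.86, or 87 tags against 3, a ratio of 14.7 (4.87 to 72.8). For Nsmce2 and Aig1 the ratios were 12.5 (4.12 to 62.1) and 10.7 (3.49 to 53.1), each against 3 tags. All 4 were also lower in DBD, by 2.21 to 4.08 on the log2 scale.

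At Camta1, Gpr124 and 2010111I01Rik the DBD height was below the worth of 1 tag. With DBD set to a floor of 3 combined tags, KLF3 was 22.1-fold higher at Camta1, 16.6-fold at Gpr124 and 14.8-fold at 2010111I01Rik. The lower limits of the exact counting intervals for the KLF3 to DBD tag ratio were 17.6, 13.1 and 11.6, respectively. Hps4 had a single DBD tag against 135 KLF3 tags, a ratio of 92.9 with an exact counting interval from 16.4 to 3694. At the floor of 3 tags KLF3 was 31.0-fold higher at Hps4. The ΔDL heights of these 4 peaks were 0.51 to 1.87 below those of KLF3 on the log2 scale.

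Where the higher construct reached a height of 8, the largest increases in ΔDL were at Dusp10, Baz2a, Hrh1 and Pkib, by 2.02 to 2.17 on the log2 scale. None of the 4 is listed for KLF3. Dusp10, Hrh1 and Pkib are listed for ΔDL alone and Baz2a for ΔDL and DBD, so these increases are in part set by the listing. The Dusp10 peak, in a gene for a MAP kinase phosphatase, had heights of 6.05 in KLF3, 8.22 in ΔDL and 4.82 in DBD. After shifting to the common median the 4 increases were 0.96 to 1.11. With the same limit on height, the largest increases in DBD were at Sh3glb1, Robo1, Smarca2 and Sox5, by 0.98 to 1.40. Sh3glb1 is listed for DBD alone and the others for all 3 constructs. At Robo1, which encodes an axon guidance receptor, the heights were 7.17 in KLF3, 8.79 in ΔDL and 8.20 in DBD. With the common median these DBD increases were 0.56 to 0.98, and Robo1 was then 0.56 above KLF3 in ΔDL and 0.61 in DBD.

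The 4602 peaks fell in 2764 host genes, of which 1837 had a single peak and 395 had 3 or more. Long genes had more. The median span was 63.8 kb for host genes with 1 peak and 298 kb for those with 3 or more, against 15.5 kb for all protein-coding genes of GENCODE on mm9. The host genes with the most peaks differed in which constructs their peaks are listed for. Dmd, the dystrophin gene, had 15 peaks, of which 5 are listed for KLF3, all 15 for ΔDL and 7 for DBD, and none has a KLF box. Csmd3 had 14 (4 for KLF3, 12 for ΔDL, 9 for DBD) and Lrp1b, a lipoprotein receptor gene, 14 (2 for KLF3, 13 for ΔDL, 8 for DBD). The KLF3 heights at Lrp1b ran from 5.35 to 6.96, and the median of DBD minus KLF3 was 0.53. Palld, which encodes the actin-bundling protein palladin, had 12 peaks in a far shorter span (389 kb against 2058 kb). Of these 9 are listed for KLF3, 3 for ΔDL and none for DBD. Their KLF3 heights ran from 6.49 to 9.39, and the median of DBD minus KLF3 was −2.40. Lpp, which encodes a LIM protein of focal adhesions, had 11 peaks, 10 of them listed for KLF3, 3 for ΔDL and 1 for DBD. Their KLF3 heights ran from 6.89 to 10.13. At the highest, whose sequence is given above, ΔDL was at 9.75 and DBD at 5.92. Wwox, an oxidoreductase gene, was between these with 12 peaks, 6 listed for KLF3, 9 for ΔDL and 4 for DBD. Lpp shared its number of peaks with Syn3, Nrxn3 and Cntnap2. Syn3, a synapsin gene named here after its values were seen, has 10 of its 11 peaks listed for KLF3, 3 for ΔDL and 2 for DBD. Its median of DBD minus KLF3 was −2.45.

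Gene lists were then read for peaks listed for KLF3 and not DBD, which were 39.6% of all later-intron peaks. These were 32 of 50 peaks in the list for actomyosin and the actin cytoskeleton and 28 of 41 (68.3%) in the list of focal adhesion and integrin genes. Of the 50 peaks in 16 of the 41 genes for actomyosin and the actin cytoskeleton, 39 (78.0%) are listed for KLF3 and 8 for DBD, against 53.4% and 28.0% of all later-intron peaks. At 36 of the 50 DBD was at least 2-fold below KLF3, and at 1 it was at least 2-fold above. Besides Palld and Lpp, this list held Diap2, a formin gene, whose 6 peaks include 4 listed for KLF3 and 5 for DBD, with a median of DBD minus KLF3 of 0.385. In the list of focal adhesion and integrin genes, 34 of 41 peaks (82.9%) are listed for KLF3 and 9 for DBD. Itgb5, the integrin β5 gene, had 7 peaks with a median KLF3 height of 9.26, of which 6 are listed for KLF3, 2 for ΔDL and none for DBD. All 6 peaks of Tns1, which encodes tensin, are listed for KLF3 alone, while the 5 in Tln2, a talin gene, had a median of DBD minus KLF3 of −0.10.

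Extracellular matrix genes had 25 peaks, 20 of them listed for KLF3 and 5 for DBD. The Fbn1 peak, in the last intron of the fibrillin 1 gene, had heights of 9.47 in KLF3, 8.64 in ΔDL and 4.79 in DBD. All 4 peaks of Col18a1 are listed for KLF3 alone, and 2 of the 3 in Col12a1 are listed for KLF3. For the TGF-beta pathway 16 of 20 peaks are listed for KLF3 and 4 for DBD, and the peak in the gene of the latent TGF-beta binding protein Ltbp3 had heights of 8.86, 8.33 and 3.22. Of the others in that list, the 4 peaks of Tgfbr3 had a median of DBD minus KLF3 of −2.67 and those of Ltbp1 of −0.605.

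The counts of this paragraph are to be read beside the 53.4% of all later-intron peaks listed for KLF3 and the 28.0% listed for DBD. Among genes for transcription factors of the motifs above, the RUNX list had 12 peaks, 10 listed for KLF3 and 1 for DBD. Runx1 had 9 of them, the highest with KLF3, ΔDL and DBD heights of 9.22, 8.53 and 5.92, and the highest in Runx2 had 9.72, 9.23 and 6.35. The TEAD and Hippo pathway list had 14 peaks (10 for KLF3, 1 for DBD), with Amotl1, Stk3 and Wwc2 among their hosts. AP-1 factor genes had 6 peaks, of which 2 are listed for KLF3. KLF and Sp genes had 3, in Klf2, Klf8 and Klf12, of which those in Klf2 and Klf8 are listed for KLF3. Genes of the CtBP corepressor complex had 9, of which 5 (55.6%) are listed for KLF3, near the share over all later-intron peaks. These 5 include single peaks in Wiz and in the histone methyltransferase gene Ehmt2 and 1 of 3 in Zeb2. Adipogenesis regulators had 29 (19 for KLF3, 2 for DBD). Of these, Tcf7l2, a mediator of Wnt signalling, had 9 peaks, 6 of them listed for KLF3, and Nfix had 4, all listed for KLF3, whereas 1 of 5 in Nfia is.

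Of 94 peaks in 22 of 30 neuronal genes, 17 (18.1%) are listed for KLF3 and not DBD, 34 (36.2%) for DBD and 43 for ΔDL alone. In all 32 (34.0%) are listed for KLF3 and 76 for ΔDL, and 10 (10.6%) had a KLF box. The median G+C content was 37.2%, against 45.3% in the actomyosin list and 47.9% in the focal adhesion list. Nrxn3 and Cntnap2, both synaptic cell adhesion genes, had 11 peaks each, of which 2 and 1 are listed for KLF3. The synapsin gene Syn3 is not in this list and went the other way, with 10 of 11 peaks listed for KLF3 and 2 for DBD. Whether the KLF3 or the DBD share is the higher therefore depends on which genes the list holds. Neuronal genes are long, and per Mb of gene they had 4.69 peaks, near the 4.32 over all protein-coding genes. KLF3-listed peaks came to 1.60 per Mb there, against 2.30 over all protein-coding genes, 8.36 in the actomyosin list and 11.1 in the focal adhesion list. DBD-listed peaks came to 1.70, 1.21, 1.71 and 2.93 per Mb, respectively. These counts describe lists chosen with results known, and no test was made of them.

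**Figure D5:**
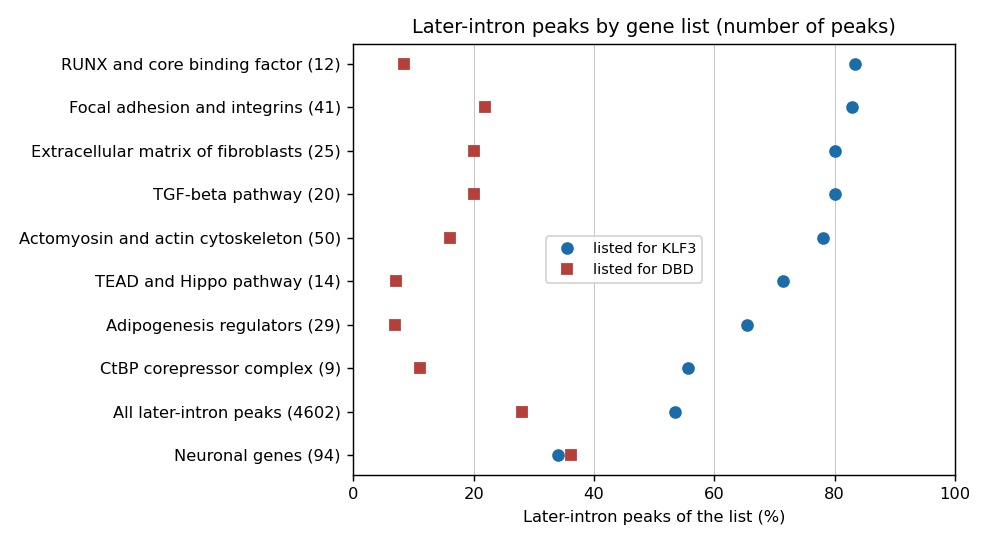
Percentage of the later-intron peaks of each gene list that are listed for KLF3 (circles) and for DBD (squares), with the number of peaks in parentheses; lists with fewer than 9 peaks are among those left out. The neuronal list, at 34.0% and 36.2%, is the only one shown in which the DBD share is the higher. It does not hold the synapsin gene Syn3, with 10 of 11 peaks listed for KLF3 and 2 for DBD, and the order of its shares depends on such choices.

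Host genes were also read for KLF3-listed peaks in promoters and first introns. The share over all genes was not computed, so the counts that follow do not show an excess or a lack in host genes. Of 1705 host genes of KLF3-listed later-intron peaks, 434 (25.5%) also have a KLF3-listed promoter peak and 300 (17.6%) a KLF3-listed peak in a first intron. Among the 1059 host genes whose later-intron peaks are not listed for KLF3, these numbers were 229 (21.6%) and 116 (11.0%). For 3042 peaks (66.1%) the nearest promoter was that of the host gene itself.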

How the data were processed

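Immunoprecipitated and input chromatin of 3 constructs was sequenced in 2 replicates each, and a deposited record covers both replicates. Reads of 50 bp were mapped by the authors with Bowtie2 2.0.0 to mm9. They called peaks on each replicate against its input with HOMER 4.1 (5-fold enrichment, false discovery rate 0.001) and annotated them with RefSeq. FastQC 0.10.1 and SAMtools 0.1.18 are also named in the submitters' notes. Deposited heights are log2 tags in 400 bp of both replicates combined, to which the HOMER log option added up to 1 tag at random. Over intervals given in more than 1 table, repeated heights differed with an SD of 0.405 to 0.464 tags. The peak score of a replicate list is a signal that the authors scaled to 100 M tags, and its smallest step gave the tags behind each list. The G+C content is a deposited fraction, recomputed from the mm9 sequence for the table of all peaks. PhastCons is a mean score deposited by the authors. Inputs were used by the authors in calling peaks and not otherwise here.

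Region classes, listings and host transcripts follow the deposited annotation. Host symbols were found for 4594 of the 4602 peaks from pairs in the lists and from RefSeq, and gene spans from GENCODE on mm9. Overlap meant 1 bp in common. No count model was fitted, since tags are given only at called peaks. Replicate shares were compared with exact permutation tests and the 6 lists with exact sign-flip tests, with Benjamini-Hochberg adjustment. Peaks were named by rule: the 5 highest in KLF3 and 4 highest in DBD, the 4 largest falls and rises in each mutant with a listed height of 8 or more in the higher construct, the 4 most alike, the hosts with most peaks, up to 3 hosts per gene list (1 of the 12 lists is not reported here), and Grin1 and Fez2. The peak class, lists and rules were chosen with earlier results of these data known. Statistics were tested on simulated data. Scripts ran in Python 3.11.15 with pysam 0.24.0 for sequences, scipy 1.17.1 for tests, pandas 2.3.3, numpy 2.4.6 and, for figures, matplotlib 3.10.9.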

Additional observations from a re-analysis of the deposited data

How the results depend on the processing

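Of 150 alternative values for 22 results, 145 kept their direction and 104 lay within 1.5 times the reported value. Counts and motif shares cannot change direction, and the values with the replicate number as a block repeat the reported ones. For these the direction was fixed in advance. All 5 reversals were in the median differences, which can change sign. With the common median, the counts of peaks at least 2-fold lower and higher in ΔDL were 1342 and 25, that higher in DBD was 22, and the medians for ΔDL and DBD reversed to −0.255 and −0.34. A limit of 1.5-fold gave 700 lower and 2772 higher in ΔDL and 953 higher in DBD. Among the KLF3-listed peaks alone, 411 were higher in ΔDL and 8 in DBD, the medians reversed to −0.05 and −2.12, and 151 host genes had 3 or more peaks. With a height of at least 7 in either construct, 85 were higher in DBD and its median reversed to −1.84. Peaks whose nearest promoter is the host's gave 1160 lower and 110 higher in DBD, with fewer peaks by construction. Without peaks in a GENCODE first intron or within 1000 bp of a GENCODE TSS, a choice made after seeing the data, the medians were 0.85 and 0.14. In the central 200 bp, KLF boxes were in 37.3% and AP-1 sites in 15.4% of peaks, and CACCC alone was in 24.6%. The changes under the common median follow from the shift itself, and the others come with fewer peaks, a wider window, another word or another limit.

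No source ties replicates of the same number across constructs. With the replicate number as a block, the differences in later-intron share were 4.90, 7.66 and 2.75 percentage points, with p = 0.5 in the exact sign-flip test, the smallest that 2 pairs allow. Leaving out each list in turn changed no direction but moved some values by over 1.5 times. The later-intron share of DBD exceeded that of ΔDL by 4.19 without ΔDL replicate 1 and 1.32 without ΔDL replicate 2, and that of ΔDL exceeded that of KLF3 by 3.13 without KLF3 replicate 2. Without KLF3 replicate 2 the AP-1 difference from first introns fell to 0.0915 and the RUNX difference to 0.326. The small TEAD differences from first introns ran from −0.384 without KLF3 replicate 2 to −0.00181 without DBD replicate 2. When every list was reduced to equally many of its highest peaks, the later-intron share of ΔDL and DBD exceeded that of KLF3 by 8.64 and 12.5. The depth of ΔDL replicate 1 limits what can be said of peaks absent from the ΔDL listing.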

Other observations

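The annotation of a later intron depends on the transcript set. In GENCODE on mm9, the centre of 799 of the later-intron peaks (17.4%) lies in the first intron of some transcript and that of 354 (7.69%) lies within 1000 bp of a start site. Of the latter 354, 53.7% had a KLF box and 73.4% are listed for KLF3, with a median DBD minus KLF3 of −2.19. In first-intron peaks these values were 47.3%, 70.3% and −2.06. Of the 3606 peaks with neither feature, 24.1% had a KLF box, as did 24.1% of intergenic peaks, and 51.1% are listed for KLF3.

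After the sequences had been seen, the core of the recognition sequence of the insulator protein CTCF (on either strand the word AGGGGGC, the word AGGTGGC, or the word AGATGGC) was searched in the central 100 bp. It was present in 3 of the 4 later-intron peaks with a DBD height of at least 9 (Grin1, Prph and Map3k6, the exception being Rapgef6), in 4 of 66 with a height from 8 to 9, and in 166 of 4532 below 8. In all later-intron peaks the share was 3.76%, against 4.98% of their flanks, and 5.70% in the whole table.

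ETS sites (CCGGAAG) and CCAAT boxes differed little between the centres and flanks of later-intron peaks. The shares were 0.413% and 0.282% for ETS sites, and 13.7% and 12.6% for CCAAT boxes.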
